A study of Mus musculus with 18 samples.

Results

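Adipogenic C/EBP and EBF transcription factors were followed by name through the expression profiles of 3 fat depots: Cebpa, Cebpb, Cebpd, Ebf1, Ebf2, Ebf3, Zfp423, Klf15, Tle3 and Bcl6. All 10 symbols were found among the 52093 symbols of the profiles by name alone. The samples were 18 RNA-seq libraries from wild-type C57BL/6 males, 16 weeks old, whose last 12 weeks were spent on HFD, a high-fat diet. Inguinal white fat (iWAT) gave 6 adipocyte libraries, epididymal white fat (eWAT) gave 6 more, and brown adipose tissue (BAT) gave the remaining 6. The white adipocytes were the floating fraction after collagenase digestion, whereas BAT was frozen as whole tissue, so digestion, cell isolation and depot cannot be told apart in any comparison with BAT. White libraries were run in lanes 1 and 2, with both depots in both lanes, and BAT libraries in lanes 3 and 4, so lane and BAT cannot be told apart either. Replicates carry the numbers of their labels. These do not say whether libraries with the same number in different depots came from 1 mouse, and the p-values below measure the spread between these libraries.

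Fat cell differentiation runs through a relay of transcription factors. C/EBPβ and C/EBPδ are made early, in response to cAMP and glucocorticoid signals, and are followed by C/EBPα and PPARγ, which hold each other's expression in the mature adipocyte. Early B cell factors (EBF1, EBF2 and EBF3) bind next to PPARγ on many fat cell genes, and EBF2 is known for marking the brown fat lineage. ZFP423 commits preadipocytes and represses the brown program, TLE3 is a Groucho-family partner of PPARγ, KLF15 is a glucocorticoid-induced activator of fat and amino acid metabolism, and BCL6 is a zinc-finger repressor found in adipocytes and lymphocytes.

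Levels are given as deposited RPKM, the read count of a row divided by its length and by the total of its library. On mm9, the rows of Cebpa (chromosome 7, 35904312 to 35906947), Cebpb (chromosome 2, 167514415 to 167515918) and Cebpd (chromosome 16, 15887379 to 15891124) hold 1 exon each. Those of Ebf1 (chromosome 11, 44430819 to 44821593), Ebf2 (chromosome 14, 67852129 to 68049755), Ebf3 (chromosome 7, 144385354 to 144506128) and Zfp423 (chromosome 8, 90185707 to 90483494) span many exons, as do those of Klf15 (chromosome 6, 90412570 to 90425232), Tle3 (chromosome 9, 61220173 to 61266304) and Bcl6 (chromosome 16, 23965138 to 23988938). The single exon of Cebpb shares 20.7% of its bases with exons of Tmem189 on the opposite strand, and the library kit does not mark strand. The Cebpd row is overlapped by 2310008H04Rik on the opposite strand, which had a median of 318 reads in iWAT, 337 in eWAT and 115.5 in BAT, where Cebpd itself had as few as 70, and the part of such reads in its level was not tested. The Cebpd row is 3.18 times as long as its longest GENCODE vM1 transcript and the Ebf1 row 3.13 times. Their RPKM would be higher on the GENCODE length if all reads of the row are kept. Ebf1 has a second row of 943 bases on the opposite strand, which was not used.

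Promoters are shown for 4 members on which the results turn: Cebpa and Cebpb, whose differences between the white depots had opposite signs, and Ebf3 and Zfp423, which differed between depots in different patterns. Each line gives the 250 bases before the RefSeq start site in GRCm38.p6, read 5′ to 3′ on the gene's strand. Capitals mark the EBF palindrome CCCNNGGG, the C/EBP core TTGCNNAA, the cAMP response element half-site TGACG or the TATA motif TATAAA, searched on both strands, and no base belongs to more than 1 of these matches.
Cebpa chr7:35119043-35119292, plus strand: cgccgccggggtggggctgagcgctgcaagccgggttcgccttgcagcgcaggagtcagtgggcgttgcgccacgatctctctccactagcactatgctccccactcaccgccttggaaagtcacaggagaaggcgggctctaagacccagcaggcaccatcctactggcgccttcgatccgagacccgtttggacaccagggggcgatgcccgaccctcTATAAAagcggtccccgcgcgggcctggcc
Cebpb chr2:167688665-167688914, plus strand: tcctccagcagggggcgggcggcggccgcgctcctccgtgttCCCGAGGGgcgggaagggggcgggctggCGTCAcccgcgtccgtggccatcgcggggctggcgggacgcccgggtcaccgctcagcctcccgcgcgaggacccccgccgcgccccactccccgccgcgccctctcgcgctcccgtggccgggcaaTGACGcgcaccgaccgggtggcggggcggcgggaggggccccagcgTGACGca
Ebf3 chr7:137314446-137314695, minus strand: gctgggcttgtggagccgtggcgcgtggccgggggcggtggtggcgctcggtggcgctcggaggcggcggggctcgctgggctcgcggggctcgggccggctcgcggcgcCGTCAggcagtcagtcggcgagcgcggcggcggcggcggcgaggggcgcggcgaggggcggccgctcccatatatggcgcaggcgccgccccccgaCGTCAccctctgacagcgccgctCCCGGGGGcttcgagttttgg
Zfp423 chr8:87959596-87959845, minus strand: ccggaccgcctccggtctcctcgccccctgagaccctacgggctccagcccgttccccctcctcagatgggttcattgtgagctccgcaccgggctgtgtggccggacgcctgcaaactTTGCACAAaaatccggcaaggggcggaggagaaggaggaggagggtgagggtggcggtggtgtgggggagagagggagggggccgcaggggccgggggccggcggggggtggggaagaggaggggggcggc
Of the 10 members, 8 had a RefSeq promoter, and Cebpd and Ebf2 are named only. The EBF palindrome was in a promoter of 3 of the 8 (Cebpb, Ebf3 and the second promoter of Zfp423) and in 11.8% of all 32851 promoters. The C/EBP core was found once, in Zfp423, and in 9.56% of all promoters. The cAMP half-site was in 5 of the 8 (Bcl6, Cebpb, Ebf3, Klf15 and Tle3) and in 17.8% of all promoters, with 3 matches in Cebpb. A TATA motif was found in Cebpa alone, 30 bases before the start, and in 12.4% of all promoters. A CACCC box, not capitalised, was in 7 of the 8 and in 52.0% of all promoters, and a CCAAT box in 2 (Klf15 and Tle3) and in 33.8%. Members were counted over any of their promoters, 11 promoters for 8 members. The percentages are per single promoter, so the 2 shares are not on the same unit. GC content of the members' promoters ran from 40.0% (Ebf1) to 81.6% (Cebpb), with a median of 52.4% over all promoters. The matches describe letters only. In mm9 the start sites of the 4 printed promoters coincide with the starts of the rows.

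Libraries held 24655056 to 42518483 reads on rows. The adipocyte markers (Adipoq, Plin1, Fabp4, Lipe and Cidec) summed to 10630 to 15060 RPKM in iWAT, 2407 to 7423 in eWAT and 5494 to 6732 in BAT, and the brown markers, with Ucp1, to at least 2250 in every BAT library and at most 17.1 in any white one. Markers of other cells were detected in the white fractions too. All 8 macrophage markers passed as higher in eWAT than in iWAT (median log2 fold change -2.19 for iWAT over eWAT, against 0.0014 for all genes), and their summed level was 2835 to 4557 RPKM in eWAT, 506 to 992 in iWAT and 26.4 to 53.0 in BAT. Endothelial and mural markers, 6 each, all passed as higher in iWAT than in eWAT. Within eWAT, replicates 1 and 3 stood apart, with the lowest adipocyte sums (3286 and 2407 RPKM) and the highest macrophage sums (4557 and 4502), and values without them are given for the comparisons and members whose calls or counts they change. In BAT the skeletal muscle markers summed to 1.74 RPKM in replicate 2 and to a median of 74.0 over the 6 libraries. In these bulk samples, fewer adipocytes and less RNA of a gene per adipocyte cannot be told apart.

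Cebpa was the most abundant member in all 3 depots, followed by Cebpb, and neither range overlapped its neighbour's in any depot. In iWAT, Cebpd followed at 21.2 ± 5.52 RPKM (SD, n = 6), above Zfp423 in 6 of 6 libraries. Klf15, Bcl6, Ebf1 and Tle3 then lay between 6.26 and 7.46 RPKM with overlapping ranges and no stable order, and Ebf3 (4.11 ± 0.578) and Ebf2 (1.77 ± 0.533) closed the list. In eWAT, Ebf2 was again lowest at 0.785 ± 0.130 RPKM, and Ebf3 stood above it in 5 of 6 libraries with overlapping ranges. BAT had another order. There, Ebf2 (7.06 ± 1.04 RPKM) and Ebf3 (6.26 ± 0.149) followed Bcl6, without a separation from each other, and Cebpd was the least abundant member at 1.58 ± 0.524 RPKM. With the GENCODE length in place of the row length, Cebpd moved to the second place in iWAT and to the seventh in BAT, and Ebf1 to the fourth in both. All reads of each row were kept for this, whether or not they lie in the GENCODE transcript.

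**Figure D1:**
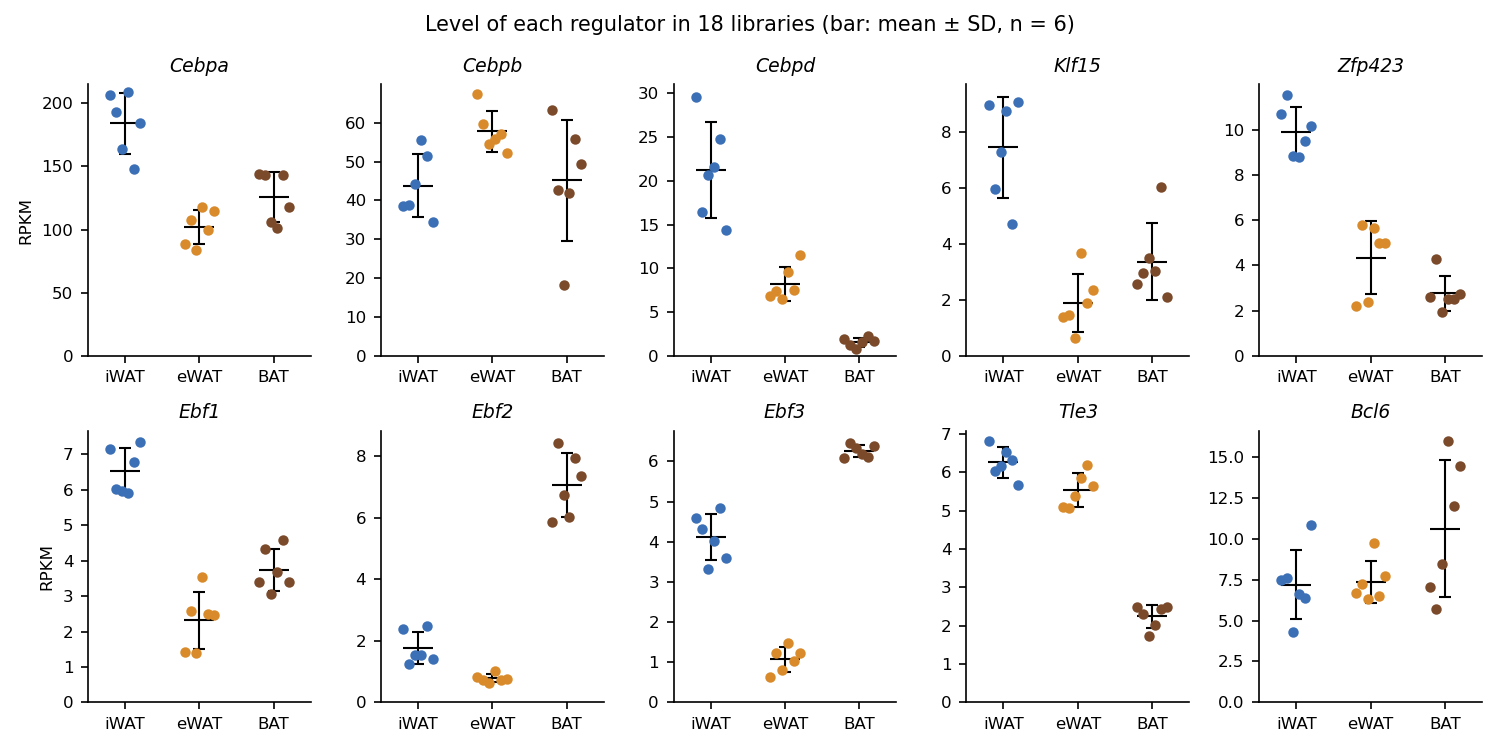
RPKM of the 10 regulators in each library (points), with the mean ± SD of 6 libraries (black), for iWAT adipocytes, eWAT adipocytes and BAT, each panel starting at 0. Cebpd stepped down from iWAT to eWAT to BAT with no overlap, Ebf2 and Ebf3 were highest in BAT, and Bcl6 overlapped across all 3 depots.

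Between the white depots, 9 of the 10 members passed an adjusted p of 0.05 in edgeR's quasi-likelihood test, 8 of them higher in iWAT adipocytes and 1, Cebpb, higher in eWAT adipocytes. Of all genes tested, 68.6% passed (34.1% higher in iWAT). With an absolute log2 fold change of at least 1 as well, 6 members remained, all higher in iWAT, where 24.9% of all genes passed. Ranges of RPKM scaled by TMM, edgeR's correction for library composition, did not overlap for 7 members, against 43.5% of all genes. The median log2 fold change of the 10 was 1.19, beside 0.0014 for all genes. Without eWAT replicates 1 and 3, 8 members passed, Tle3 being the one lost (log2 fold change 0.13, adjusted p = 0.13), where 60.2% of all genes passed. With the fold of at least 1 as well, 5 members then remained, Zfp423 being lost at 0.88, where 19.8% of all genes passed.

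Against BAT the members split. For iWAT over BAT, 8 passed, 4 in each direction, where 75.3% of all genes passed. The second rule left 5 members, where 37.3% of all genes passed, and 5 members did not overlap on TMM-scaled RPKM, against 56.4%. For eWAT over BAT, 8 passed, 2 higher in eWAT and 6 higher in BAT, where 82.5% of all genes passed. The second rule left 6 members, where 49% of all genes passed, and 6 did not overlap, against 66.3%. These shares lie near the background, and the 3 comparisons share libraries. The scaling bears on all of them. TMM-scaled RPKM was 1.26 to 1.57 times the deposited RPKM in BAT libraries and 0.826 to 0.912 times in white ones. This step also replaced the total behind the deposited RPKM by the reads on the rows used. The TMM factors alone, by which a library's total is multiplied, were 0.536 to 0.725 in BAT, 1.139 to 1.312 in iWAT and 1.224 to 1.313 in eWAT. Without TMM, on total counts alone, all genes had a median log2 fold change of 0.87 for iWAT over BAT and 0.89 for eWAT over BAT. Among all genes called, 7529 were higher in iWAT and 7336 in BAT, against 13701 of 16755 higher in iWAT without scaling. For eWAT the split was 8243 against 8318, and 12962 of 17028 higher in eWAT without scaling. Without scaling the members' split was 6 higher in iWAT and 2 in BAT, and 4 higher in eWAT and 2 in BAT.

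**Figure D2:**
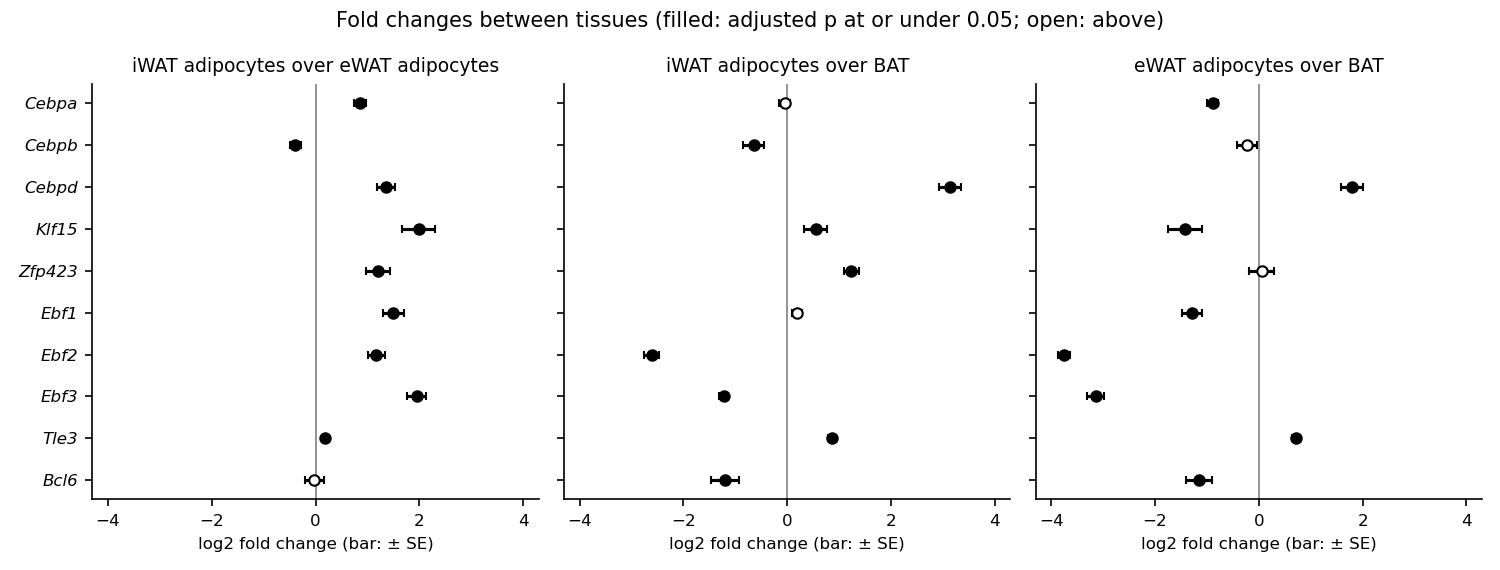
Log2 fold change of each regulator from edgeR on TMM-scaled counts, with its SE, in 3 comparisons (first depot over second). Filled points passed an adjusted p of 0.05 and open points did not. Cebpd lay on the white side in both comparisons with BAT, and Ebf2 and Ebf3 on the BAT side.

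Cebpa, which holds the mature fat cell program together with PPARγ, had 148, 189 and 209 RPKM (lowest, median and highest library) in iWAT, 83.8, 104 and 118 in eWAT and 101, 130.3 and 144 in BAT. Every iWAT library lay above every eWAT library, and above every BAT library as deposited but not on TMM-scaled RPKM. The log2 fold change of iWAT over eWAT was 0.86 (SE 0.12, adjusted p = 3.7e-05), or 1.81-fold. It was -0.051 for iWAT over BAT (SE 0.11, adjusted p = 0.67) and -0.89 for eWAT over BAT (SE 0.10, adjusted p = 1.2e-06), but without scaling these turned to 0.79 (adjusted p = 2.4e-05) and 0.015 (adjusted p = 0.92).

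Cebpb, an early inducer of adipogenesis that macrophages also use, had 34.5, 41.5 and 55.6 RPKM in iWAT, 52.2, 56.4 and 67.4 in eWAT and 18.2, 46.0 and 63.2 in BAT. Ranges overlapped in every pair of depots, and BAT replicate 5 lay below the others. It was the only member that passed as higher in eWAT than in iWAT, with a log2 fold change of iWAT over eWAT of -0.39 (SE 0.11, adjusted p = 0.0053), and with all 18 libraries in 1 fit it no longer passed (-0.41, adjusted p = 0.062). Tmem189, which shares exon bases with it on the other strand, had a median of 5990 reads in eWAT, 2751 in iWAT and 1184 in BAT, and macrophage markers were higher in eWAT as given above. The part of either in the Cebpb difference was not tested. For iWAT over BAT the log2 fold change was -0.65 (SE 0.21, adjusted p = 0.010), which turned to 0.20 without scaling (adjusted p = 0.39). For eWAT over BAT it was -0.23 (SE 0.20, adjusted p = 0.29), passed at -0.40 without BAT replicate 5 (adjusted p = 0.0027), and turned to 0.67 without scaling (adjusted p = 0.0059).

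Cebpd, which acts beside C/EBPβ at the start of differentiation and responds to glucocorticoids, had 14.4, 21.1 and 29.6 RPKM in iWAT, 6.50, 7.48 and 11.5 in eWAT and 0.765, 1.64 and 2.27 in BAT. The 3 depots formed 3 separate ranges. Reads behind these values ran from 70 in the lowest BAT library to 3278 in the highest iWAT library. The log2 fold change was 1.36 for iWAT over eWAT (SE 0.18, adjusted p = 1.9e-05), 3.13 for iWAT over BAT (SE 0.21, adjusted p = 2.4e-09) and 1.79 for eWAT over BAT (SE 0.21, adjusted p = 1e-06), so the TMM-scaled level in iWAT adipocytes was 8.76 times that in BAT. Without scaling the values against BAT were 3.995 for iWAT (adjusted p = 7.2e-11) and 2.70 for eWAT (adjusted p = 2.1e-09). The balance within a library moved with it: the ratio of Cebpb to Cebpd was 1.31 to 2.58 in iWAT, 4.53 to 9.87 in eWAT and 23.8 to 34.5 in BAT, 3 ranges without overlap that no scaling between libraries can change.

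The EBF genes were all higher in iWAT than in eWAT and all higher in BAT than in eWAT, and for iWAT over BAT only Ebf1 did not pass. Ebf1 had 5.92, 6.39 and 7.36 RPKM in iWAT, 1.41, 2.48 and 3.53 in eWAT and 3.06, 3.54 and 4.59 in BAT. As deposited, each iWAT library stood above each eWAT and BAT library, and on TMM-scaled RPKM iWAT and BAT overlapped. The log2 fold change was 1.498 for iWAT over eWAT (SE 0.20, adjusted p = 2.7e-05) and -1.28 for eWAT over BAT (SE 0.19, adjusted p = 1.8e-05), the latter reaching -0.37 without scaling (adjusted p = 0.076). For iWAT over BAT it was 0.19 (SE 0.10, adjusted p = 0.079), and it passed without scaling (1.05, adjusted p = 2.7e-07), without BAT replicate 16 (0.23, adjusted p = 0.048) and without BAT replicate 17 (0.24, adjusted p = 0.042). EBF1 is also the factor that gives B cells their identity. All 5 B cell markers had means under 1 RPKM in each depot, with sums of 0.595 to 2.41 RPKM. Between the white depots 3 B cell markers could be tested, and 2 of them passed as higher in iWAT, the direction of Ebf1. Of these, Ms4a1 had a log2 fold change of 1.76 (adjusted p = 0.0015). Cd79b did not pass (-0.46, adjusted p = 0.16). All 6 mural and all 6 endothelial markers also passed as higher in iWAT (median log2 fold changes 1.46 and 1.62), and all 8 macrophage markers as higher in eWAT. The part of B cells or of any of these other cells in the Ebf1 difference was not tested.

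Ebf2, the brown lineage factor, had 1.26, 1.54 and 2.5 RPKM in iWAT, 0.643, 0.748 and 1.02 in eWAT and 5.88, 7.04 and 8.44 in BAT. The ranges of the 3 depots did not overlap. On the log2 scale the fold change was -2.61 for iWAT over BAT (SE 0.15, adjusted p = 2.4e-10), -3.76 for eWAT over BAT (SE 0.12, adjusted p = 3.6e-13) and 1.17 for iWAT over eWAT (SE 0.17, adjusted p = 4.6e-05). On the TMM scale BAT thus held 6.11 times the iWAT level and 13.5 times the eWAT level. Without scaling the log2 fold changes were -1.74 for iWAT over BAT (adjusted p = 6.5e-08) and -2.85 for eWAT over BAT (adjusted p = 2e-12).

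Ebf3, the remaining family member, had 3.33, 4.16 and 4.83 RPKM in iWAT, 0.645, 1.13 and 1.47 in eWAT and 6.10, 6.26 and 6.46 in BAT. The 3 depots did not overlap. Its coefficient of variation in BAT was 2.38% as deposited and 8.24% on TMM-scaled RPKM. Its log2 fold change of 1.95 for iWAT over eWAT (SE 0.18, adjusted p = 1.1e-06) lay above that of 98.3% of all genes. It was -1.22 for iWAT over BAT (SE 0.085, adjusted p = 3e-09), or -0.36 without scaling (adjusted p = 0.0032), and -3.15 for eWAT over BAT (SE 0.16, adjusted p = 8.4e-11).

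As shares of the summed RPKM of Ebf1, Ebf2 and Ebf3 in a library, Ebf1 had the highest share in the white depots on the deposited row lengths, and Ebf2 and Ebf3 were both above Ebf1 in BAT. Ebf1 made up 52.8 ± 4.005% in iWAT and 54.6 ± 4.26% in eWAT (SD, n = 6), but 21.9 ± 2.095% in BAT. Ebf2 made up 14.1 ± 2.81% in iWAT, 19.7 ± 4.79% in eWAT and 41.2 ± 2.53% in BAT, where it overlapped with Ebf3 (37.9 to 43.9% against 32.8 to 39.6%). Between the white depots the shares of Ebf1 and Ebf2 overlapped, while that of Ebf3 was 29.1 to 37.2% in iWAT and 22.2 to 28.3% in eWAT. Ebf2 over Ebf1 ran from 0.191 to 0.369 in iWAT, from 0.282 to 0.571 in eWAT and from 1.64 to 2.20 in BAT. The order within a depot depends on the length used, and the GENCODE values keep all reads of each row. On the GENCODE lengths Ebf1 made up 66.8% in iWAT, 68.8% in eWAT and 34.2% in BAT, where the mean shares of Ebf3 (33.3%) and Ebf2 (32.5%) then lay just under it.

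**Figure D3:**
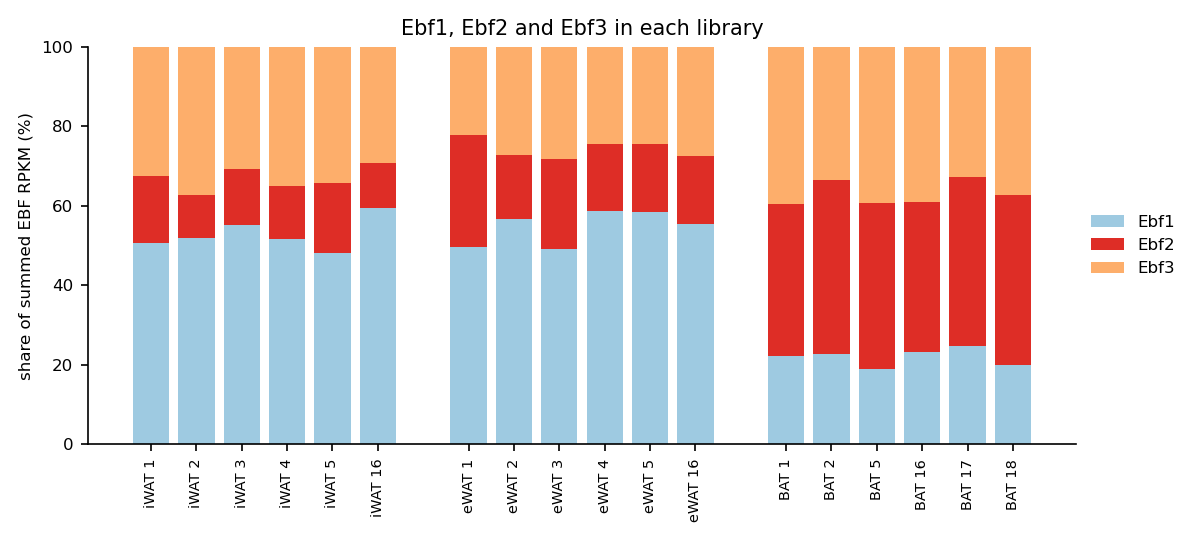
Share of Ebf1, Ebf2 and Ebf3 in their summed RPKM, 1 bar per library, with the depot and the library's number below. Ebf2 took 37.9 to 43.9% in BAT and at most 28.3% in any white library.

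Zfp423, which commits preadipocytes and holds back the brown program, had 8.78, 9.83 and 11.5 RPKM in iWAT, 2.19, 4.99 and 5.79 in eWAT and 1.95, 2.56 and 4.27 in BAT. Every iWAT library stood above the rest, and eWAT and BAT overlapped. Its log2 fold change was 1.20 for iWAT over eWAT (SE 0.23, adjusted p = 0.00048), 1.24 for iWAT over BAT (SE 0.14, adjusted p = 6.6e-07) and 0.058 for eWAT over BAT (SE 0.24, adjusted p = 0.83). In eWAT, replicates 1 and 3 had 2.19 and 2.40 RPKM and the other 4 libraries 4.97 or more. This was not particular to Zfp423. Both replicates also lay below the other 4 libraries for Cebpa, Cebpd, Ebf1, Ebf3, Klf15 and Pparg, the gene of PPARγ. They did not for Cebpb, Ebf2, Tle3 and Bcl6. Without replicates 1 and 3, the log2 fold change of Zfp423 was 0.88 for iWAT over eWAT. For eWAT over BAT, Zfp423 passed without those replicates (0.38, adjusted p = 0.028) and also without scaling (0.96, adjusted p = 0.0013). Ebf2 over Zfp423, a pair with opposed roles in brown fat, was 0.110 to 0.263 in iWAT, 0.126 to 0.375 in eWAT and 1.98 to 3.46 in BAT. Progenitor and fibroblast markers summed to 547 to 688 RPKM in iWAT, 173 to 299 in eWAT and 40.9 to 65.3 in BAT. Most of the iWAT sum was Dpt, with means of 476 RPKM in iWAT, 85.9 in eWAT and 16.3 in BAT. Pdgfra and Dcn had lower means in iWAT than in eWAT. Of the 8 markers, 3 passed as higher in iWAT than in eWAT and 5 did not pass. Against BAT, 5 passed as higher in iWAT and 2 in BAT, and 4 as higher in eWAT and 1 in BAT. The part of these markers in the Zfp423 levels was not tested.

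Klf15, a glucocorticoid target in fat, had 4.72, 8.03 and 9.07 RPKM in iWAT, 0.656, 1.67 and 3.68 in eWAT and 2.104, 3.003 and 6.02 in BAT. Here eWAT lay below iWAT in every library, and BAT overlapped both. Its log2 fold change of iWAT over eWAT, 1.98 (SE 0.32, adjusted p = 0.00012), was close to that of Ebf3, and its coefficient of variation in eWAT, 54.4%, was the highest of any member in any depot. For eWAT over BAT it was -1.42 (SE 0.33, adjusted p = 0.00092), or -0.51 without scaling (adjusted p = 0.13). For iWAT over BAT it was 0.55 (SE 0.23, adjusted p = 0.038), a call lost on leaving out any library but iWAT replicates 2 and 5 and BAT replicate 17, with values from 0.44 to 0.77, while without scaling it was 1.40 (adjusted p = 1.9e-05). With all 18 libraries in 1 fit this call was lost too.

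Tle3 was the steadiest member in the white depots, with 5.66, 6.25 and 6.82 RPKM in iWAT, 5.06, 5.51 and 6.18 in eWAT and 1.74, 2.37 and 2.497 in BAT. White ranges overlapped and lay wholly above BAT. Its log2 fold change was 0.87 for iWAT over BAT (SE 0.077, adjusted p = 4.9e-08) and 0.71 for eWAT over BAT (SE 0.083, adjusted p = 1.1e-06). Between the white depots it was only 0.18 (SE 0.065, adjusted p = 0.023), and this call was lost without scaling (0.11, adjusted p = 0.18) and on leaving out eWAT replicate 1 (0.15, adjusted p = 0.058), replicate 2 (0.16, adjusted p = 0.053) or replicate 3 (0.17, adjusted p = 0.050). The call was also lost with all 18 libraries in 1 fit.

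Bcl6, the zinc-finger repressor, had 4.31, 7.05 and 10.8 RPKM in iWAT, 6.31, 6.95 and 9.73 in eWAT and 5.72, 10.2 and 15.99 in BAT. Its ranges overlapped in every pair, and its spread was widest in BAT (coefficient of variation 39.2%). It was the only member that did not pass between the white depots (log2 fold change -0.021, SE 0.19, adjusted p = 0.93). The log2 fold change was -1.19 for iWAT over BAT (SE 0.28, adjusted p = 0.0010) and -1.15 for eWAT over BAT (SE 0.25, adjusted p = 0.00051), but without scaling neither passed (-0.30, adjusted p = 0.24, and -0.20, adjusted p = 0.37). T cell markers, 5 of 5, had means under 1 RPKM in each depot.

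Since the adipocyte and macrophage marker levels differed between depots, each member was also set against Pparg, the master regulator of adipocytes, in the same library. Pparg itself was at 89.8 ± 5.93 RPKM in iWAT, 41.5 ± 7.90 in eWAT and 86.2 ± 10.5 in BAT, with a log2 fold change of 1.12 for iWAT over eWAT (SE 0.13, adjusted p = 6.6e-06). Relative to Pparg, 6 of the 10 members overlapped between the white depots: Cebpa, Cebpd, Ebf1, Ebf2, Zfp423 and Klf15. The other 4 did not, where 70.2% of all genes did not overlap on this ratio, 0.877% higher in iWAT and 69.4% higher in eWAT. The means of Ebf2 over Pparg were 0.0200 in iWAT and 0.0193 in eWAT, and those of Zfp423 over Pparg 0.111 and 0.102. Ebf3 alone stayed higher in iWAT without overlap (0.0461 ± 0.00861 against 0.0257 ± 0.00474), and Cebpb, Tle3 and Bcl6 were higher in eWAT without overlap. For Cebpb the ratio was 0.378 to 0.648 in iWAT and 1.18 to 1.92 in eWAT. Against BAT, Cebpd over Pparg remained apart in both white depots (13.2 and 11.2 times the BAT mean), as did Ebf2 over Pparg on the BAT side (0.0664 to 0.106, against at most 0.0315 in white libraries). In each comparison with BAT, 7 members did not overlap, against 59.2% of all genes for iWAT and 77% for eWAT. For iWAT, 6 of these members were higher in iWAT and 1 in BAT, where 45.6% and 13.6% of all genes were. For eWAT, 5 were higher in eWAT and 2 in BAT, where 70.2% and 6.77% of all genes were. No test was run on these ratios. Pparg RNA per cell was not measured, so an overlap on this scale cannot tell cell content from expression per cell.

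**Figure D4:**
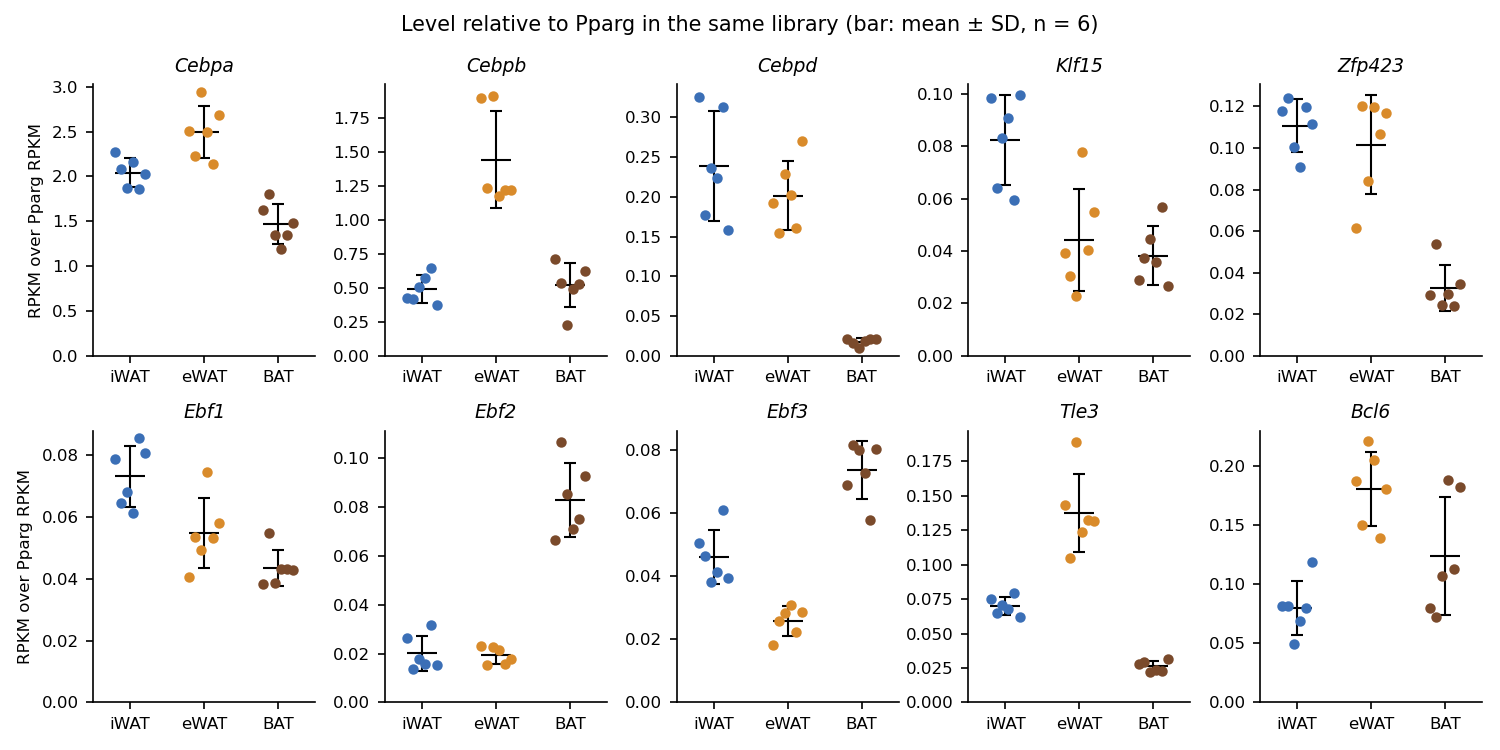
RPKM of each regulator divided by the RPKM of Pparg in the same library (points), with the mean ± SD of 6 libraries (black), each panel starting at 0. Ebf2 and Zfp423 overlapped between the white depots on this scale, Cebpb and Tle3 were highest in eWAT, Bcl6 was higher in eWAT than in iWAT and overlapped with BAT, and Cebpd was at most 0.0217 in BAT.

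Immediate-early and dissociation genes, such as Fos and Egr1, are switched on within minutes by handling and enzyme digestion as well as by hormones, and Cebpb and Cebpd are induced by many of the same signals. All 20 genes of this list were higher in each white depot than in BAT (median log2 fold change 3.76 for iWAT and 3.43 for eWAT), with and without scaling. Between the white depots 9 were higher in iWAT and 3 in eWAT. Fos was at 458 ± 82.4 RPKM in iWAT, 327 ± 40.9 in eWAT and 1.51 ± 1.29 in BAT. Their summed level was 3480 to 6333 RPKM in iWAT, 3065 to 4550 in eWAT and 87.8 to 554 in BAT. Cebpd was likewise higher in both white fractions than in BAT, while Cebpb overlapped. The list's part in the Cebpd difference was not tested. Of 11 glucocorticoid-induced genes, 9 passed as higher in iWAT than in BAT and 1 as lower, where 38.1% and 37.2% of all genes did. Of the same 11 genes, 8 passed as higher in eWAT than in BAT and 2 as lower, where 41.1% and 41.4% of all genes did. Without scaling the list gave 10 and 1 in both comparisons. Between the white depots 4 of these genes were higher in iWAT and 2 in eWAT, where 34.1% and 34.5% of all genes were. Fkbp5, a chaperone of the glucocorticoid receptor, was at 2.26 for iWAT over BAT (SE 0.21, adjusted p = 1.1e-07) and Pdk4, a kinase that shuts pyruvate out of oxidation, at -3.80 (SE 0.18, adjusted p = 3.7e-11).

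Within the 6 libraries of a depot, 9 relations were tested by exact permutation, two-sided, on log2(RPKM + 0.1). None passed after adjustment over the 9. In BAT, Cebpb and Cebpd had a Pearson's r of 0.93 (exact permutation p = 0.0139, adjusted p = 0.125) and a Spearman's rho of 0.89 (exact p = 0.0333, adjusted p = 0.15), and r was 0.85 without the 2 libraries farthest from the median. BAT replicate 5 had the lowest Cebpb, the lowest Cebpd and the lowest immediate-early sum. In iWAT and eWAT, r of the same pair was 0.45 (exact p = 0.37) and -0.59 (exact p = 0.22), or 0.44 and 0.036 without those 2 libraries. Cebpd and Klf15 had an r of 0.77 in eWAT (exact p = 0.0625, adjusted p = 0.20) and a rho of 0.94 (exact p = 0.0167, adjusted p = 0.15), and their r was -0.083 in iWAT (exact p = 0.90) and 0.18 in BAT (exact p = 0.72). Without the 2 farthest libraries these became 0.87 in eWAT, -0.18 in iWAT and -0.45 in BAT. The mean of Cebpb and Cebpd against the immediate-early list had an r of 0.75 in BAT (exact p = 0.068, adjusted p = 0.20), 0.33 in iWAT (exact p = 0.55) and -0.17 in eWAT (exact p = 0.74), which became 0.96, 0.14 and 0.62 without them. With 4 libraries left, the relations whose sign turned rest on the libraries left out. Over the 9 relations, 1 r and 2 values of rho had an unadjusted exact p under 0.05.

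**Figure D5:**
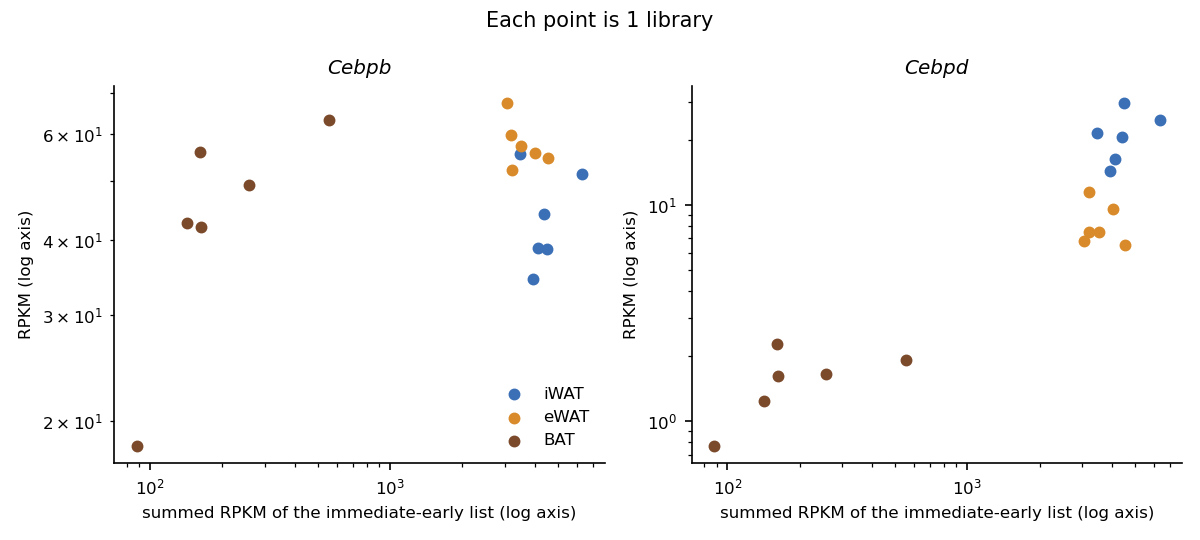
RPKM of Cebpb (left) and Cebpd (right) against the summed RPKM of 20 immediate-early and dissociation genes, both axes logarithmic, 1 point per library, coloured by depot. White libraries lie at 3065 or more on the horizontal axis and BAT libraries at 554 or less. On the vertical axis the 2 kinds are apart for Cebpd (at least 6.50 against at most 2.27 RPKM) and overlap for Cebpb.

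Relatives of the members gave context. For the list counts in this and the next 3 paragraphs, the shares of all genes tested were these. For iWAT over eWAT, 34.1% passed as higher in iWAT and 34.5% as higher in eWAT. For iWAT over BAT the shares were 38.1% and 37.2%, and for eWAT over BAT 41.1% and 41.4%. Among 9 tested C/EBP relatives, 7 passed as higher in iWAT than in eWAT and none as lower (median log2 fold change 0.56, beside 0.0014 for all genes). Hlf, a circadian PAR bZIP factor, stood at 1.40 ± 0.224 RPKM in iWAT, 0.196 ± 0.0687 in eWAT and 7.45 ± 2.61 in BAT, with a log2 fold change of 2.85 for iWAT over eWAT (SE 0.20, adjusted p = 2.3e-07). Against BAT the split of this list depended on scaling: 2 higher in iWAT and 5 in BAT with it, 5 and 2 without, and 1 higher in eWAT and 7 in BAT with it, 3 and 4 without. Of 7 EBF and zinc-finger relatives tested for iWAT over eWAT and for eWAT over BAT (8 for iWAT over BAT), 5 were higher in iWAT than in eWAT and 1, Zfp516, higher in eWAT, while against BAT 4 were higher in iWAT and 2 in BAT (7 and 0 without scaling) and 3 each for eWAT and BAT (4 and 2 without scaling). Zfp521, which binds and restrains EBF1 and ZFP423, was at 1.15 ± 0.491 RPKM in iWAT, 0.486 ± 0.189 in eWAT and 0.348 ± 0.0576 in BAT.

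In the KLF family (12 tested), 2 were higher in iWAT than in eWAT and 2 lower, and 8 did not pass. Against BAT, 7 were higher in iWAT and 1 in BAT, and 8 higher in eWAT and 2 in BAT (12 and 0, and 11 and 0, without scaling). Klf14, a regulator linked to fat distribution, was at 3.31 ± 0.745 RPKM in iWAT, 1.53 ± 0.826 in eWAT and 0.00985 ± 0.0128 in BAT. Klf6 and Klf4, both also immediate-early in kind, were higher in iWAT than in BAT by 3.03 (SE 0.15, adjusted p = 8.5e-11) and 2.32 (SE 0.19, adjusted p = 2e-08). Among 14 Groucho, TLE and co-repressor genes, 5 were higher in iWAT than in eWAT and 4 lower. Tle1 (log2 fold change 0.61, SE 0.094, adjusted p = 8e-05) and Tle4 (-1.01, SE 0.11, adjusted p = 3.7e-06) moved in opposite directions. Against BAT this list gave 7 higher in iWAT and 6 in BAT, and 6 each for eWAT and BAT, but 11 and 1, and 12 and 2, without scaling.

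Of 15 other adipogenic regulators tested, 12 were higher in iWAT than in eWAT and 2 higher in eWAT. Prdm16, the brown and beige co-regulator that works with EBF2, was at 1.90 ± 0.295 RPKM in iWAT, 0.538 ± 0.153 in eWAT and 2.81 ± 0.457 in BAT. Nfia, another EBF2 partner, was at 5.79 ± 0.409, 2.24 ± 0.645 and 8.29 ± 1.51 RPKM in the same order. The mean RPKM of both had the depot order of Ebf2 and Ebf3, BAT above iWAT above eWAT. For Nfia, unlike Ebf2 and Ebf3, iWAT (up to 6.39 RPKM) and BAT (from 5.43 RPKM) overlapped. Prdm16 and Nfia differed between the white depots by 1.83 (SE 0.17, adjusted p = 1.4e-06) and 1.38 (SE 0.17, adjusted p = 1.2e-05). Of 20 adipocyte genes known as C/EBP or PPARγ targets, 17 were higher in iWAT than in eWAT, with Retn at 2.23 (SE 0.38, adjusted p = 0.00019) and Pck1 at 2.21 (SE 0.27, adjusted p = 1.4e-05), and 1, the fatty acid transporter Cd36, was higher in eWAT (-0.36, SE 0.11, adjusted p = 0.011). Inhibitors of adipogenesis (16 tested) gave 9 higher in iWAT and 3 in eWAT, with the endothelial and preadipocyte factor Gata2 at 2.12 (SE 0.25, adjusted p = 8.5e-06). Brown adipocyte genes gave 10 of 12 higher in iWAT than in eWAT, while Ucp1 was at 2.26 ± 0.592 RPKM in iWAT, 0.261 ± 0.0844 in eWAT and 1858 ± 237 in BAT.

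Against BAT the last 4 lists gave these counts. The other adipogenic regulators split into 5 higher in iWAT and 7 in BAT (11 and 2 without scaling), and 4 higher in eWAT and 10 in BAT (8 and 5 without scaling). The C/EBP or PPARγ targets split into 8 and 8 for iWAT and BAT (13 and 5 without scaling), and 5 and 13 for eWAT and BAT (8 and 9 without scaling). The inhibitors split into 10 and 4 for iWAT and BAT (13 and 2 without scaling), and 3 and 9 for eWAT and BAT (7 and 3 without scaling). Brown adipocyte genes were higher in BAT in 12 of 13 cases against iWAT and in 13 of 13 against eWAT, with and without scaling.

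For each member, the genes with the most similar pattern over the 18 libraries were found by the root mean square difference of centred log2(TMM-scaled RPKM + 0.1), among 12242 or 12243 genes. Ebf3 had Prdm16 as its nearest gene, at 0.22, where Ebf3 itself varied by 1.29 about its mean and the median gene lay at 1.34. Rasl12 (0.22) and Fmo1 (0.23) lay about as near to Ebf3, so Prdm16 does not stand apart. Ebf1 was nearest to Mgll, the monoglyceride lipase of fat cells, at 0.16 against a variation of 0.74. Zfp423 was nearest to Wwtr1, which encodes TAZ, at 0.19 against 0.70. Cebpa lay nearest to Tcta at 0.13 against 0.45, and Tle3 to 2900073G15Rik at 0.12 against 0.38. Tspo and Rbms2 were also at 0.13 from Cebpa, and Crtap and Mtap4 at 0.12 from Tle3. The nearest gene was B9d2 for Cebpb (0.24 against 0.43), Ankrd29 for Cebpd (0.40 against 1.32), Pde1a for Klf15 (0.35 against 1.01) and Mrpl22 for Bcl6 (0.37 against 0.68).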

How the data were processed

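RNA was profiled in 18 libraries, 6 per depot, prepared with a NEBNext Ultra kit. Per the labels, the authors used mm9. The submitters' processing notes name cutadapt 1.16 and HISAT2 2.1.0, and the counting program and annotation are not given in the sources used here. The deposited files hold whole read counts per row and the RPKM that the authors computed from them. Samples were grouped by the tissue in their labels. The treatment field gives regular chow in 18 of 18 labels, against HFD in 18 of 18 titles and in the design text, and samples were taken as HFD. The strain is C57BL/6 in the labels, C57BL/6J in their extraction text and C57BL/6NTac in the study's supplementary information, where the age is given.

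Where a symbol had several rows, as 1220 did, the most abundant by mean RPKM stood for it. Counts were tested with edgeR 4.0.16 in R 4.3.3 (quasi-likelihood, TMM, two-sided), each comparison on its own 12 libraries, after genes averaging under 10 reads were left out. P-values were adjusted by Benjamini-Hochberg over all genes tested, with a threshold of 0.05. The SE came from the F statistic. Alternatives used DESeq2 1.42.0, limma 3.58.1 on log2(RPKM + 0.1), and other settings given in the closing section. Levels were compared as RPKM, or as TMM-scaled RPKM where stated. Intervals from reads would cover counting error only. The scripts were tested on simulated data.

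Members, lists and tests were chosen with earlier results of these data known. From each list, up to 3 genes per direction with the largest called change and a mean of at least 1 RPKM in a group could be named, and other adipogenic regulators could be named in full. Neutrophil, mesothelial and Schwann cell markers were also listed, and neutrophil markers summed to at most 8.59 RPKM in any library, mesothelial ones to at most 9.91 and Schwann cell ones to at most 70.7. The gene nearest in pattern to Ebf2 and part of the B cell marker values are not reported here.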

Additional observations from a re-analysis of the deposited data

Results flagged for a closer look

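Among 30 sets of 6 libraries (10 members in 3 depots), 2 held a library whose gap to its nearest neighbour was a larger share of the whole range than Dixon's critical value at 95% allows, where chance would give about 1.5. Zfp423 in BAT replicate 2 was at 4.27 RPKM, against 1.95 to 2.76 in the other 5, a gap of 0.65 of the range. That library also had the lowest skeletal muscle sum of its depot, 1.74 RPKM. Klf15 in BAT replicate 17 was at 6.02 RPKM, against 2.104 to 3.51 in the other 5, a gap of 0.641 of the range. Leaving that library out moved the log2 fold change of Klf15 for iWAT over BAT to 0.77, its highest value.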

How the results depend on the processing

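Leaving out each library in turn, the number of members that passed was 8 to 9 for iWAT over eWAT (of all genes, 64.8 to 69.4% passed), 7 to 9 for iWAT over BAT (73.1 to 74.9%) and 8 to 9 for eWAT over BAT (81.2 to 82.1%). Of 360 member values so obtained, 336 kept their direction and side of the threshold, 12 were lost, 3 were gained and 9 changed sign. These 9 passed neither before nor after: they were values of Bcl6 for iWAT over eWAT (-0.19 to 0.092), Cebpa for iWAT over BAT (-0.094 to 0.018) and Zfp423 for eWAT over BAT (-0.033 to 0.20). Of 270 values under the other alternatives, 236 kept both, 15 were lost, 6 were gained and 13 turned. Without the filter Bcl6 was at 0.0060 for iWAT over eWAT and Cebpa at 0.050 for iWAT over BAT. The rest were of Cebpa or Cebpb against BAT: for Cebpa 0.79 without scaling, 0.55 with limma on log2(RPKM + 0.1) and 0.55 on log2(RPKM + 1) for iWAT, and 0.015 without scaling for eWAT; for Cebpb 0.20, 0.033 and 0.030 for iWAT and 0.67, 0.45 and 0.44 under the same 3 settings and 0.0020 with the replicate block for eWAT. Pparg for iWAT over BAT, -0.55, turned to 0.31, 0.065 and 0.064 under the same 3 settings. Deposited RPKM carries no TMM scaling, which these alternatives share. With an absolute log2 fold change of at least 1, calls went from 13454 to 4892 genes for iWAT over eWAT, from 14865 to 7363 genes and from 8 to 5 members for iWAT over BAT, and from 16561 to 9830 genes for eWAT over BAT. DESeq2 changed no member's call. Library numbers are shared between depots. Correlations of same-numbered deviations ran from -0.24 to 0.42. With so few shared numbers, they cannot tell whether such libraries came from the same mice. The labels do not say so either, and the numbers were used as a block in an alternative only. With the replicate block, 9, 6 and 8 members passed, on 12836, 12486 and 15147 genes called (65.4%, 63.5% and 75.4% of all genes tested). Cebpb (-0.57, adjusted p = 0.12) and Klf15 (0.57, adjusted p = 0.050) were lost for iWAT over BAT. In the comparisons with BAT the block held only the 4 shared numbers, 8 libraries. The same libraries without the block gave 7 and 8 members, on 12949 and 15456 genes (65.8% and 76.9% of those tested). Cebpb was then at -0.67 (adjusted p = 0.050, not passed) and Klf15 at 0.61 (adjusted p = 0.032) for iWAT over BAT, so the call of Cebpb was lost with the smaller set and that of Klf15 with the block. For eWAT over BAT without eWAT replicates 1 and 3, 9 members passed, where 80.8% of all genes did. Those omissions, leaving out single libraries, the unblocked fit on shared numbers and the GENCODE length were chosen after seeing the data. Depth limited Klf15 in eWAT most, with 50 reads in its lowest library.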
